A study of Mus musculus with 12 samples.

Results

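The Kruppel-like factors of mouse liver are described here by their nascent RNA over the light:dark cycle. The table was searched by symbol for Klf2, Klf3, Klf6, Klf9, Klf10, Klf11, Klf12, Klf13 and Klf15, and all 9 were found among its 21490 gene symbols. Livers were collected every 4 hr from ZT0 (lights on) through ZT12 (lights off) to ZT20, in 2 independent series, so that each time point had 2 replicates and the dataset 12 libraries. All libraries came from the livers of untreated wild-type C57BL/6 males, adults aged 3 to 6 months, kept for at least 2 weeks in 12 hr of light and 12 hr of darkness. RNA still attached to chromatin was extracted from purified nuclei, cleared of polyadenylated RNA and sequenced (Nascent-Seq), and each value is the coverage of a gene's exons in reads per base pair (rpbp). The sources used here do not say whether a library came from 1 mouse or several, so p-values measure the spread between these samples. A gene was tested when it exceeded 6 rpbp in at least 1 library, a limit passed by 6284 symbols and by 6 of the 9 factors (Klf3, Klf9, Klf10, Klf12, Klf13 and Klf15). Klf2, Klf6 and Klf11 stayed below it in every library and are given by their values alone.

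Kruppel-like factors are transcription factors with zinc fingers at the carboxyl end of the protein, which bind GC-rich sequences such as the CACCC box and the GC box. The part of the protein outside the fingers decides the partners. Klf9, Klf10, Klf11 and Klf13 bind the SIN3A corepressor, Klf3 and Klf12 bind the CtBP corepressor, and Klf2, Klf6 and Klf15 are best known as activators. In liver, Klf15 is known for its role in gluconeogenesis and in the breakdown of amino acids, Klf9 as a glucocorticoid-responsive gene, and Klf10 as an early response gene of TGF-beta signaling and a target of the circadian clock.

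The highest mean fell at ZT12 in 4 of the 6 tested factors (Klf3, Klf9, Klf13 and Klf15) and in 27.5% of all tested genes, and promoters of this group are shown first, other than that of Klf3, whose window overlapped an annotated exon. The bases are those from 250 before the start site to the base before it, taken from RefSeq on build GRCm38.p6, in which 8 of the 9 factors had an entry. Each window matched the mm9 genome once, at chr7:71083802-71084051 on the minus strand for Klf13, chr19:23215466-23215715 on the plus strand for Klf9 and chr6:90412320-90412569 on the plus strand for Klf15, and none of these 3 windows overlapped an annotated exon. Capitals mark the cAMP half-site TGACGT in Klf13 and Klf9 and the E-box CACGTG, the sequence bound by CLOCK:BMAL1, in Klf15.
Klf13: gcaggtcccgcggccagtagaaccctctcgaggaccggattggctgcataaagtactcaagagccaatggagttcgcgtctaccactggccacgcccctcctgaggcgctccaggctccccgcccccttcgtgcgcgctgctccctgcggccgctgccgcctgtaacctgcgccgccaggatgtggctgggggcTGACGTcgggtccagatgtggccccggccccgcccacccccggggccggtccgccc
Klf9: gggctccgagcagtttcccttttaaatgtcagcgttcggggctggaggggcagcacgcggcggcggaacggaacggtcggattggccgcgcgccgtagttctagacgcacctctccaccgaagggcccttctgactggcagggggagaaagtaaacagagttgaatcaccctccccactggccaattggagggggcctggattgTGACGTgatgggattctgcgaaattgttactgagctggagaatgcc
Klf15: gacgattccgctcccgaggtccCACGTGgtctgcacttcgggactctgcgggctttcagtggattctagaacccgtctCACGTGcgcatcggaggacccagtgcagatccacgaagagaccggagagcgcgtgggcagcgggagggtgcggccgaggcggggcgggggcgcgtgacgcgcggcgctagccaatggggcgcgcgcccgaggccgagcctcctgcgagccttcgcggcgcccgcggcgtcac
The capitals in Klf13 lay at −56 to −51 and those in Klf9 at −46 to −41 from the start, both on the strand of the gene. The E-boxes of Klf15 lay at −228 to −223 and −172 to −167. On either strand, TGACGT was found in 6.47% of the 32851 RefSeq promoter windows of the same length and in 2 of the 8 members. CACGTG was found in 6.02% of all windows and in 3 of the 8 members, at −43 to −38 in Klf6 and at −214 to −209 in Klf11 besides Klf15. The E-box variant CACGTT (3.85% of all windows), the D-boxes TTATGTAA (0.819%) and TTACGTAA (0.113%), the ROR half-site AGGTCA (14.0%), the glucocorticoid receptor half-site AGAACA (16.1%) and the full cAMP element TGACGTCA (1.55%), of which TGACGT is a part, were in none of the 8 windows. The GC box GGGCGG and the CACCC box, sequences that the Kruppel-like factors themselves bind, were each in 6 of the 8 windows, against 32.7% and 52.0% of all windows. A match of letters is a description of these windows and does not show that a factor binds.

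The 9 factors spanned a wide range of nascent RNA levels. The values are per base pair of exon, so a comparison of genes within a library accounts for exon length. It does not account for gene length or GC content. Exon GC ran from 42.4% in Klf6 to 61.6% in Klf2, and the study describes a signal that declines along many genes. Klf15 was the highest with a mean of 53.9 ± 20.3 rpbp (SD over 12 libraries), above the mean of 97.0% of the tested genes. Klf3 (13.1 ± 3.51 rpbp), Klf12 (11.7 ± 2.91 rpbp), Klf9 (10.5 ± 3.03 rpbp) and Klf13 (7.78 ± 6.05 rpbp) followed, around or above the median of 7.62 rpbp over tested genes. Klf10 had a mean of 5.59 ± 3.31 rpbp, Klf11 of 2.71 ± 0.663 rpbp, Klf2 of 1.58 ± 0.558 rpbp and Klf6 of 1.46 ± 0.337 rpbp. Neighbours in this order were compared within libraries with a two-sided exact permutation test of the log2(rpbp + 1) difference, adjusted over the 8 pairs. The order came from the same values as the test, which took no account of time point. In all, 4 of the 8 pairs were apart beyond their spread. Klf15 exceeded Klf3 in 12 of 12 libraries, by 1.92 log2 units (exact permutation test, adjusted p = 0.00391). Klf10 exceeded Klf11 in 9 libraries, by 0.68 (exact permutation test, adjusted p = 0.0234), and Klf11 exceeded Klf2 in 11, by 0.53 (exact permutation test, adjusted p = 0.0234). Klf9 exceeded Klf13 in the 8 libraries of ZT0, ZT4, ZT8 and ZT20, by 0.61 over all 12 (exact permutation test, adjusted p = 0.0352). This call was lost when any 1 of those 8 libraries was left out (adjusted p = 0.0547 to 0.0703). In the ZT12 and ZT16 libraries of both series Klf13 was the higher of the 2. The order of this pair thus changed with time of day, and the difference is a mean over time points. Klf3 and Klf12, Klf12 and Klf9, Klf13 and Klf10, and Klf2 and Klf6 did not differ beyond their spread (log2 differences of 0.15, 0.15, 0.33 and 0.05).

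**Figure D1:**
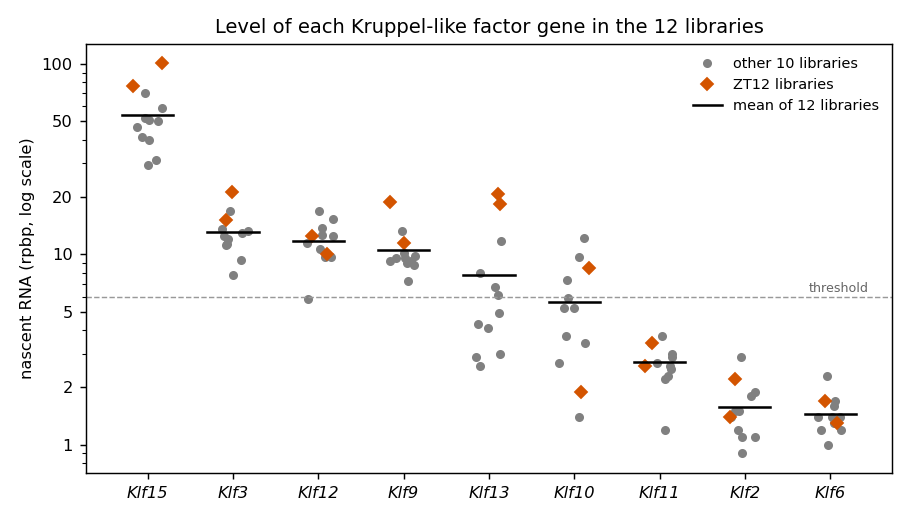
Nascent RNA of each Kruppel-like factor gene in every library (rpbp, log axis), with genes ordered by their mean (black bar), the ZT12 libraries as diamonds and the other 10 libraries as circles. The dashed line is the limit of 6 rpbp, which Klf11, Klf2 and Klf6 did not reach, and both ZT12 diamonds lie above all circles for Klf15 and Klf13.

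Nascent Klf13 RNA was highest at ZT12, having risen at some time after ZT8. Klf13 is a close relative of Klf9 and represses transcription through SIN3A. In the first series it was 4.3 rpbp at ZT0, 4.9 at ZT4, 6.7 at ZT8, 20.6 at ZT12, 8.0 at ZT16 and 6.1 at ZT20, and in the second 2.6, 2.9, 3.0, 18.3, 11.8 and 4.1 rpbp at the same times. Both ZT12 libraries were thus above the other 10, which ranged from 2.6 to 11.8 rpbp with a median of 4.6. The mean at ZT12 was 19.45 ± 1.63 rpbp and that at ZT0, the lowest, 3.45 ± 1.202 rpbp (SD, n = 2), a 5.64-fold difference. Klf13 varied more over the 12 libraries than 96.4% of the tested genes (coefficient of variation 0.778, median of tested genes 0.252). Time points accounted for 94.5% of that variance, above 98.5% of the tested genes, whose median was 63.3%. Its replicates differed by 0.54 log2 units on average, against a median of 0.30.

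**Figure D2:**
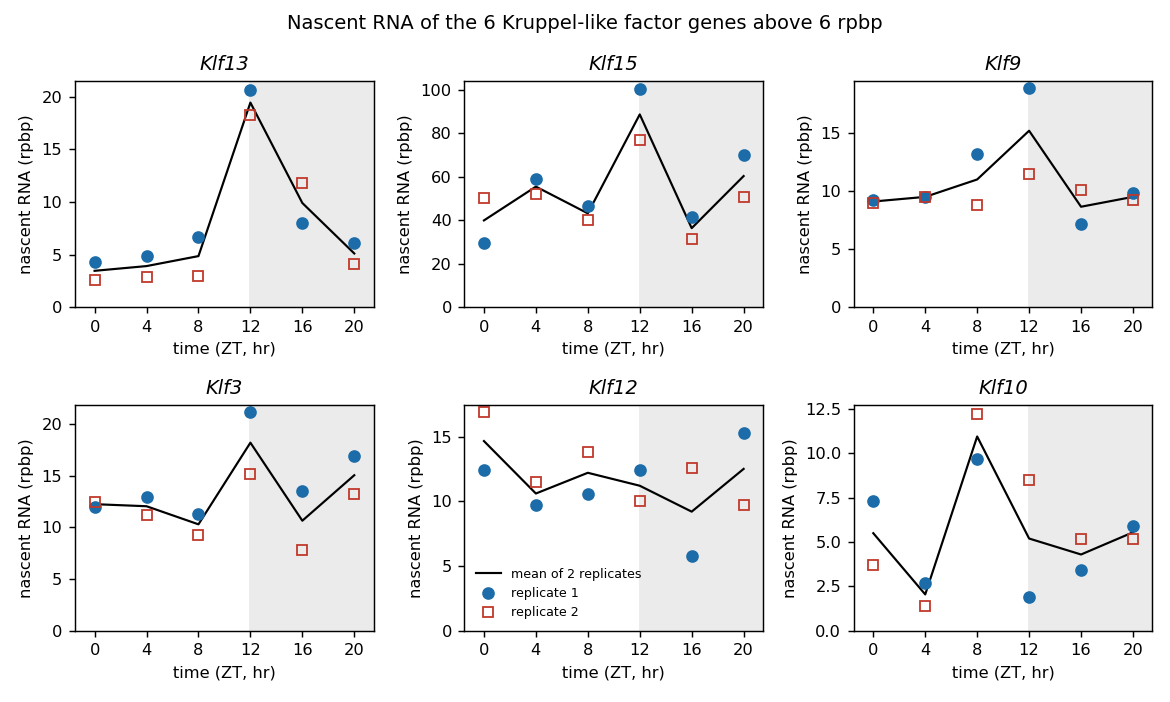
Nascent RNA (rpbp, y axis from 0) of the 6 Kruppel-like factor genes above the limit at the 6 time points (ZT, hr). Filled circles are replicate 1, open squares replicate 2, the line joins the means of both, and grey marks the dark phase; Klf13 peaks at ZT12 in both replicates, the mean of Klf15 alternates from one time point to the next, that of Klf3 does so from ZT8 onward, and Klf10 is highest at ZT8.

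Klf13 was also the only 1 of the 6 tested factors called rhythmic, against 15.2% of all tested genes. The measure, F24, is the share of a gene's variance over the 12 libraries that lies in the 24-hr component, and a call required F24 to exceed 0.45, the highest library to exceed 1.5 times the lowest and the unadjusted p, from a one-sided test of 100000 permutations, to lie under 0.05. Klf13 had an F24 of 0.638 (permutation p = 0.00177), which Benjamini-Hochberg adjustment raised to 0.0917 (0.621% of the tested genes had an adjusted p under 0.05), and a highest value 7.92 times its lowest. It also met the stricter limits of a strong rhythm (an F24 above 0.6, with the highest library exceeding 7/4 of the lowest), as 6.38% of the tested genes did, but not without the second ZT12 library, when F24 fell to 0.568 (permutation p = 0.00349). The 24-hr component of Klf13 peaked at ZT13.1, and between ZT12.3 and ZT13.4 when each library was left out in turn. Taken alone, the first series gave an F24 of 0.598 with a peak at ZT12.4 (exact permutation p = 0.0167, the smallest that 6 values allow) and the second an F24 of 0.725 with a peak at ZT13.6 (exact permutation p = 0.117). The single-series criteria were thus met in the first series, where 4.14% of the tested genes met them, and not in the second, where 2.72% did. For reference of phase, the 7 clock genes listed were all rhythmic, and the peak of Klf13 lay beside those of Per1 (ZT12.8) and Per2 (ZT14.3), both repressors of the clock.

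The other 5 tested factors were not called. Klf9 came nearest, with an F24 of 0.300 (permutation p = 0.162) and a peak at ZT10.8. Klf12 had an F24 of 0.139, Klf15 of 0.139, Klf10 of 0.110 and Klf3 of 0.0820, with permutation p from 0.519 to 0.706. Such values say only that the 24-hr component of these genes did not stand out from shuffled values, since F24 is blind to patterns with other shapes.

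Time courses of any shape were therefore compared by a limma F-test over the 6 time points, on the log2(rpbp + 1) scale, adjusted for all genes tested (Benjamini-Hochberg). This test called Klf13 alone of the 6 factors (F = 11.5, limma adjusted p = 0.0214) and 7.65% of all tested genes. The call was lost without the second ZT0 library (limma adjusted p = 0.0511), the first ZT12 library (0.0894) or the second ZT12 library (0.0737). Klf15 (F = 5.38, limma adjusted p = 0.0835) and Klf10 (F = 3.48, limma adjusted p = 0.169) had unadjusted p-values of 0.0112 and 0.0429, a range that 27.6% of the tested genes reached. Klf3, Klf9 and Klf12 had limma adjusted p-values of 0.265, 0.342 and 0.624.

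The 3 pairs of time points 12 hr apart were compared in the same fit. Within each pair the libraries had been run in the same number of lanes, 2 lanes for ZT8 and ZT20 and 1 lane for the rest. Between ZT0 and ZT12, 2 of the 6 factors passed, both higher at ZT12, against 4.44% of all tested genes that passed in either direction and 2.85% that were higher at ZT12. Klf13 was higher by 2.22 log2 units (SE 0.36, 95% interval 1.43 to 3.02, limma adjusted p = 0.00823) and Klf15 by 1.17 (SE 0.29, 95% interval 0.53 to 1.81, limma adjusted p = 0.0495). The Klf13 call was lost without the first ZT0 library (limma adjusted p = 0.0587), the second ZT0 library (0.0643) or the first ZT12 library (0.0651). The Klf15 call stood so near the threshold that it held in 3 of the 12 fits without 1 library, those without the second ZT0 library, the first ZT16 library or the second ZT16 library (limma adjusted p = 0.0390 to 0.0426). In the other 9 the limma adjusted p lay between 0.0559 and 0.332, the highest without the first ZT0 library, when the difference was 0.79. Klf9 was 0.64 higher (95% interval 0.05 to 1.24, limma adjusted p = 0.230) and Klf3 0.52 higher (−0.08 to 1.11, limma adjusted p = 0.346), neither past the threshold. Klf10 differed by −0.25 (−1.34 to 0.83) and Klf12 by −0.35 (−1.10 to 0.40). The median difference of the 6 was 0.58, and that of all tested genes 0.03.

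**Figure D3:**
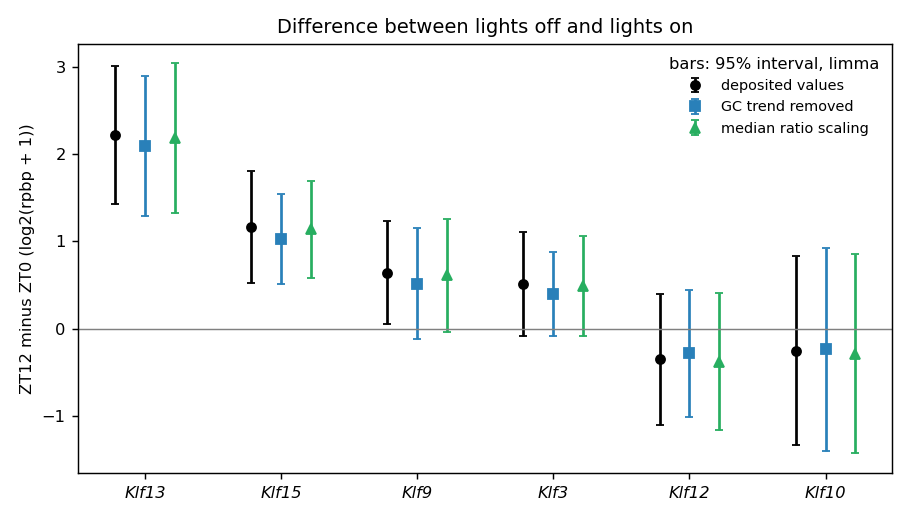
Difference between ZT12 and ZT0 on the log2(rpbp + 1) scale for the 6 tested factors, with 95% intervals from limma. Circles are the deposited values, squares those after removal of the trend with exon GC content and triangles those after rescaling each library by its median ratio; the intervals of Klf13 and Klf15 lie above 0 in all 3 settings.

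Between ZT4 and ZT16 none of the 6 factors passed, against 2.10% of all tested genes. Klf13 came nearest, 1.16 log2 units higher at ZT16 (limma adjusted p = 0.128), with 4.9 and 2.9 rpbp at ZT4 and 8.0 and 11.8 rpbp at ZT16. Klf15 differed by −0.61 (limma adjusted p = 0.278) and Klf10 by 0.81 (0.376), and the median of all tested genes was −0.20. None passed between ZT8 and ZT20 either, against 1.58% of all tested genes. The differences there ran from −0.86 for Klf10 (limma adjusted p = 0.565) to 0.50 for Klf3 (0.519). At an unadjusted p under 0.05, 19.4% of the tested genes passed between ZT4 and ZT16 and 12.6% between ZT8 and ZT20. In the former comparison Klf13 was the only factor to do so (limma unadjusted p = 0.00838), and in the latter 0 of the 6 did.

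The libraries themselves also differed in a way that bears on GC-rich genes. The difference between the tested genes of highest and lowest exon GC content, taken over 20 bins, ran from −1.197 log2 units in the second ZT8 library to 0.53 in the first ZT16 library, and was 0.50 and 0.39 in the ZT12 libraries and 0.20 and 0.00 in the ZT0 libraries. Replicates could differ widely, with −0.16 in the first ZT8 library and 0.13 in the second ZT16 library. It was −0.08 and −0.575 at ZT20, so that all libraries run in 2 lanes lay below 0. Lane number and time point cannot be told apart here. Exons of Klf13 had 55.5% GC and those of Klf15 56.7%, and among the factors not called those of Klf3 had 54.6%, Klf9 52.5%, Klf10 47.1% and Klf12 45.1%. After this trend was removed, Klf13 was 2.09 log2 units higher at ZT12 than at ZT0 (limma adjusted p = 0.0137) and Klf15 1.03 higher (limma adjusted p = 0.0347), and the F24 of Klf13 was 0.702 (adjusted permutation p = 0.0413).

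Klf15, the factor of gluconeogenesis and amino acid breakdown, had a different time course from Klf13. The first series read 29.4, 58.8, 46.3, 100.4, 41.4 and 70.1 rpbp from ZT0 to ZT20, and the second 50.3, 52.0, 39.9, 76.8, 31.2 and 50.4 rpbp. In both series the value rose from ZT0 to ZT4, fell at ZT8, was highest at ZT12, fell at ZT16 and was higher again at ZT20. Both ZT12 libraries were above the other 10, which ranged from 29.4 to 70.1 rpbp with a median of 48.3. Of the 6 tested factors, 2 (Klf13 and Klf15) showed this separation of ZT12, as did 7.67% of all tested genes. The mean of Klf15 was 88.6 ± 16.7 rpbp at ZT12 and 36.3 ± 7.21 rpbp at ZT16, its lowest (SD, n = 2), a 2.44-fold difference within 4 hr.

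This alternation was measured as the share of variance in the 8-hr component, a measure added after the time courses had been seen and given with no test. Samples taken every 4 hr cannot tell a rhythm of that period from other changes that switch direction at each time point. The 8-hr share of Klf15 was 53.2%, above 99.3% of the tested genes, whose median was 5.33%. Its 24-hr share was 13.8% and its 12-hr share 15.6%. The 8-hr share of Klf15 was 66.1% in the first series and 47.3% in the second, and 52.1% after the GC trend was removed. Klf15 averaged 68.1 rpbp over the libraries of ZT4, ZT12 and ZT20 and 39.8 rpbp over those of ZT0, ZT8 and ZT16.

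Klf3, which represses through CtBP, changed in the same directions as Klf15 from ZT8 onward, at a lower level. The first series read 12.0, 12.9, 11.3, 21.2, 13.5 and 16.9 rpbp from ZT0 to ZT20 and the second 12.5, 11.2, 9.3, 15.2, 7.8 and 13.2 rpbp. ZT12 was the highest time point of both series, but the second ZT12 library lay below the first ZT20 library. The mean was 18.2 ± 4.24 rpbp at ZT12 and 10.3 ± 1.41 rpbp at ZT8 (SD, n = 2), a 1.77-fold difference. The 8-hr share of Klf3 was 36.0%, above 96.1% of the tested genes, and 47.6% and 46.1% in the single series. It fell to 26.6% when each library was rescaled by its median ratio and to 30.9% after the GC trend was removed.

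**Figure D4:**
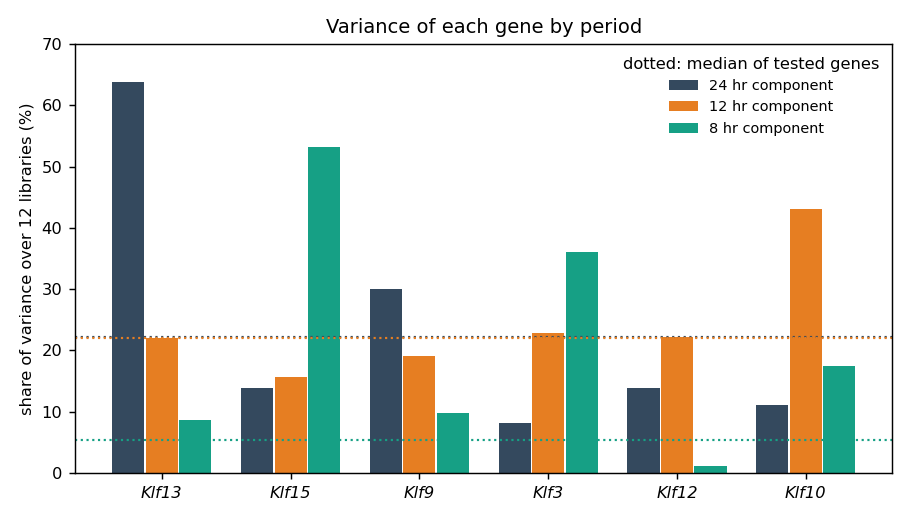
Share of each factor's variance over the 12 libraries (%, y axis from 0) in the 24-hr, 12-hr and 8-hr components, with dotted lines at the medians over all tested genes (22.18%, 21.97% and 5.33%). The 24-hr bar is the tallest for Klf13 (63.8%) and Klf9 (30.0%), the 8-hr bar for Klf15 (53.2%) and Klf3 (36.0%), and the 12-hr bar for Klf10 (43.1%) and Klf12 (22.2%).

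Klf9, a SIN3A-binding repressor that responds to glucocorticoids and thyroid hormone, stayed between 7.2 and 13.2 rpbp outside ZT12. In the first series it read 9.2, 9.5, 13.2, 18.9, 7.2 and 9.8 rpbp from ZT0 to ZT20, and in the second 9.0, 9.5, 8.8, 11.5, 10.1 and 9.2 rpbp. ZT12 was the highest time point in both, at 2.62 times the lowest value in the first series and 1.31 times in the second. The mean at ZT12 was 15.2 ± 5.23 rpbp (SD, n = 2), and the second ZT12 library lay below the first ZT8 library. Of the 6 tested factors, 4 had ZT12 as the highest library of both series, against 11.2% of all tested genes. These were the 4 factors with their highest mean at ZT12. Among all tested genes, 1727 had their highest mean at ZT12 and 704 were highest at ZT12 in both series.

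Klf10, also known as TIEG1, peaked earlier and varied more between replicates. The first series read 7.3, 2.7, 9.7, 1.9, 3.4 and 5.9 rpbp from ZT0 to ZT20, and the second 3.7, 1.4, 12.2, 8.5, 5.2 and 5.2 rpbp. The highest value fell at ZT8 in both series, and 34.1% of the tested genes had the same highest time point in both. The lowest fell at ZT12 in the first series and at ZT4 in the second. The ZT12 replicates, 1.9 and 8.5 rpbp, were the farthest apart. Klf10 averaged 10.95 ± 1.77 rpbp at ZT8 and 2.05 ± 0.919 rpbp at ZT4 (SD, n = 2), a 5.34-fold difference. Its replicates differed by 0.68 log2 units on average, more than those of 94.5% of the tested genes, and the 24-hr component fitted to each series, which was not called in either (F24 of 0.126 and 0.514), peaked at ZT2.70 and ZT11.0.

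Klf12, a CtBP-binding repressor, had the smallest part of its variance between time points of the 6 tested factors, 37.1%, below the median of 63.3% over tested genes. Its values ran from 5.8 rpbp at ZT16 of the first series to 16.9 rpbp at ZT0 of the second, with a median of 11.9. The highest time point was ZT20 in the first series and ZT0 in the second, and the lowest ZT16 and ZT20, so that the series had no extreme in common. The time point means lay between 9.20 ± 4.81 rpbp at ZT16 and 14.65 ± 3.18 rpbp at ZT0 (SD, n = 2).

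The 3 factors below the limit are given by their ranges. Klf11, a SIN3A-binding relative of Klf10, ranged from 1.2 to 3.7 rpbp with a median of 2.65. Klf2, a factor of endothelial cells that responds to blood flow, ranged from 0.9 rpbp at ZT8 of the second series to 2.9 rpbp at ZT16 of the first. Klf6, which has been described as induced in activated stellate cells, ranged from 1.0 to 2.3 rpbp. None of these 3 had the same highest time point in both series.

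Across the 12 libraries, the closest pair of tested factors was Klf3 and Klf15, with a Pearson correlation of 0.89. Klf9 and Klf15 (0.73), Klf9 and Klf13 (0.73), Klf13 and Klf15 (0.67), Klf3 and Klf9 (0.63) and Klf3 and Klf13 (0.58) came next, while those of Klf10 and Klf12 with any other factor lay between −0.36 and 0.13. These are descriptions over 12 libraries that share their scaling, their GC trends and the ZT12 time point, and no p is given. Of all tested genes, the 3 most like Klf13 were Syngr2 (0.97), 8430419L09Rik (0.97) and Pitpnm2 (0.97), and the 3 most like Klf15 were Crcp (0.95), Hpd (0.93) and Scarb2 (0.92). Scarb2 was also the gene most like Klf3 (0.92). Camk2b (0.95), DQ693081 (0.93) and Ppargc1a (0.93), the last of which encodes a coactivator of gluconeogenesis, were the most like Klf9. For Klf10 the likeness went up to 0.88 (AK076372) and for Klf12 to 0.81 (Strn3).

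Other genes of the family and of its pathways were taken from lists, and the members' time courses can be set beside them. Of 17 other genes of the KLF and SP families, 14 were in the table. Of these, 2 exceeded 6 rpbp, Klf7 (2.5 to 6.3 rpbp) and Sp3 (4.2 to 11.5 rpbp), and neither was called by any test. At a limma unadjusted p under 0.05, 1 of the 2, Sp3, differed between time points, against 27.6% of all tested genes. The median difference of the 2 between ZT12 and ZT0 was 0.04 log2 units, against 0.03 for all tested genes. Sp1, the founding GC box factor, ranged from 3.4 to 5.8 rpbp, Klf4 and Klf5 did not exceed 0.2 rpbp, and Klf8 was listed at 0 in every library. Of 12 listed symbols of corepressors, coactivators and ubiquitin ligases with which the family is known to act, 7 were tested. Pcaf and Kat2b of this list are names of the same gene. Sin3a, the corepressor partner of Klf9, Klf10, Klf11 and Klf13, was the only 1 of the 7 called rhythmic, against 15.2% of all tested genes. It had an F24 of 0.649 (permutation p = 0.00799, adjusted permutation p = 0.150), a highest value 1.64 times the lowest and a peak at ZT4.32. Without the first ZT16 library its highest value was 1.47 times the lowest, below the limit of 1.5, as it also was with median-ratio scaling (1.48) and with the GC trend removed (1.42). None of the 7 was called by limma in any comparison. At a limma unadjusted p under 0.05, 1 differed between time points, against 27.6% of all tested genes. Between ZT4 and ZT16, 3 did so, Sin3a among them, against 19.4% of all tested genes. Sin3a differed by −0.02 log2 units between ZT0 and ZT12.

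Of 8 genes linked to Klf15 in amino acid breakdown and gluconeogenesis, 7 were in the table and all of these exceeded 6 rpbp. None was rhythmic by F24, against 15.2% of all tested genes. By the limma F-test 3 differed between time points, against 7.65% of all tested genes. The 3 were Pck1, the rate-setting enzyme of gluconeogenesis (limma adjusted p = 0.0172), Tat, which begins tyrosine breakdown (0.0482), and Otc of the urea cycle (0.0356). Otc was lowest at ZT12 and ZT16 (12.4 and 8.6 rpbp at ZT12, 8.6 and 10.1 rpbp at ZT16). With 1 library left out at a time, the call of Tat held in 2 of 12 fits and that of Otc in 1, while that of Pck1 was lost without the first ZT0 library (limma adjusted p = 0.0721), the first ZT12 library (0.0501) or the second ZT12 library (0.0549). Pck1 alone of the 7 passed between ZT0 and ZT12, with 49.3 and 79.6 rpbp at ZT0 and 630.4 and 654.7 rpbp at ZT12, a difference of 3.34 log2 units (limma adjusted p = 0.00411, and 0.0602 without the first ZT0 library). Of all tested genes, 4.44% passed between ZT0 and ZT12. The median difference of the 7 listed genes was 0.715. Tat read 109.2 and 232.9 rpbp at ZT0, 456.6 and 357.2 rpbp at ZT12 and 148.4 and 82.9 rpbp at ZT16, so that it alternated as Klf15 did. The 8-hr share was 66.0% for Tat, 53.1% for Pck1 and 34.5% for Tdo2, which begins tryptophan breakdown, and 13.9% for Bcat2, 8.73% for Prodh, 5.91% for Otc and 0.654% for Aass. High shares were not confined to this list. Among tested hepatocyte markers, described below, it was 50.2% for Cps1, 25.3% for Apoa1, 10.9% for Ttr and 7.37% for Alb. Among tested genes of the glucocorticoid response it was 40.45% for Tsc22d3, 12.8% for Nr3c1, 8.68% for Per1 and 6.43% for Fkbp5.

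Of 6 genes of the glucocorticoid response, 5 were tested. Per1, Fkbp5 and Tat passed the limma F-test, against 7.65% of all tested genes. Per1 and Fkbp5 were higher at ZT12 than at ZT0, as were 2.85% of all tested genes. Per1 read 0.8 and 1.2 rpbp at ZT0 and 16.8 and 30.4 rpbp at ZT12, a difference of 3.57 log2 units (limma adjusted p = 0.000884). Fkbp5, which encodes a chaperone of the glucocorticoid receptor, read 1.6 and 0.8 rpbp at ZT0 and 10.7 and 32.2 rpbp at ZT12, a difference of 3.19 (limma adjusted p = 0.0156). The Fkbp5 difference was not called without the first ZT0 library (limma adjusted p = 0.0957), the second ZT0 library (0.0936) or the second ZT12 library (0.0948), and its F-test call held in 3 of the 12 fits without 1 library. The median difference of the 5 genes was 1.39. The receptor gene Nr3c1 itself passed no test, and was at least 10.8 rpbp in every library. Of 14 immediate early genes, 6 were tested (Jun, Junb, Dusp1, Myc, Zfp36 and Btg2) and none was called by F24 or limma, with a median difference of 0.22 between ZT12 and ZT0. At a limma unadjusted p under 0.05, 4 of the 6 differed between time points, against 27.6% of all tested genes.

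In whole liver, fewer nuclei of a cell type and less nascent RNA per nucleus cannot be told apart. Hepatocyte markers had the highest summed signal of the marker lists in every library. Their summed signal (6 of 6 genes, Tat among them) was 1532 and 1704 rpbp in the ZT12 libraries and 1584 and 1864 rpbp in those of ZT20, against 695.5 and 790.0 rpbp at ZT16 and 630.6 and 1291 rpbp at ZT0. It lay between 939.2 and 1545 rpbp at ZT4 and ZT8. From ZT12 to ZT20 the sum moved with Klf15 and Klf3, as did Alb, Tat and Serpina1a in both series. The other markers did not all follow. Apoa1 fell from ZT16 to ZT20 in both series. From ZT12 to ZT16, Ttr rose in the first series (55.0 to 106.7 rpbp) and Cps1 in the second (292.1 to 323.8 rpbp). Kupffer cell markers (6 of 7 listed symbols, Emr1 and Adgre1 being names of the same gene) summed to 44.9 and 45.5 rpbp at ZT12. Of this, Clec4f made up 21.6 and 22.7 rpbp. The sum ranged from 19.4 rpbp in the second ZT8 library to 68.1 rpbp in the first. In that first ZT8 library the markers went opposite ways. Marco (20.5 rpbp), Emr1 (17.3 rpbp) and Cd5l (23.9 rpbp) were at their highest there, and Clec4f (1.6 rpbp) and Vsig4 (1.5 rpbp) at their lowest. Endothelial markers (7 of 7) ranged from 12.9 to 28.3 rpbp and stellate cell markers (6 of 6) from 11.1 to 18.1 rpbp. Lymphocyte markers (4 of 4) ranged from 2.7 to 9.5 rpbp. Cholangiocyte markers (4 of 5 listed symbols, Tacstd1 and Epcam being names of the same gene) ranged from 0.8 to 2.2 rpbp. No marker of these lists was at 0 in all libraries. The part of these marker differences in the time courses of the factors was not tested.

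All 9 genes are annotated as protein coding on mm9, and no other symbol of the table overlaps any of them. Klf13 spans chr7:71036253-71083743 on the minus strand, Klf15 chr6:90412620-90425203 on the plus strand, Klf9 chr19:23215716-23241401 on the plus strand and Klf3 chr5:65194762-65221368 on the plus strand. Klf10 spans chr15:38224168-38230462 and Klf12 the much longer chr14:100269862-100549014, both on the minus strand. Klf11 lies on the plus strand at chr12:25336139-25347540, Klf2 at chr8:74842932-74845248 and Klf6 at chr13:5860735-5869639. The annotation places the microRNA gene Mir1192 within Klf9. Reads were counted without regard to strand, so RNA from the opposite strand of these exons would be included in the values.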

How the data were processed

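Nascent-Seq libraries from mouse liver were analysed at 6 time points with 2 replicates each. The labels gave each sample's time point and replicate number. Per the submitters' processing notes and the methods of the study, the authors called bases with CASAVA 1.7, aligned reads to mm9 with TopHat and kept those that mapped uniquely. The deposited signal is the coverage over the merged exons of all isoforms of a gene symbol per base pair, without regard to strand, scaled by the authors so that all libraries had an equal number of reads, and given to 1 decimal. For ZT8 and ZT20 the authors merged 2 lanes per library, while the others had 1. The 24-hr statistics (share of variance, phase and p-value) that the authors deposited beside the signal were not used. The study gives the number of mapped reads of each library, which this scaling evens out and which was not used here. The values are not counts, and no count model was fitted. Summed over all symbols, the signal ranged from 118342.4 to 160545.0 rpbp.

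The 27919 blank lines of the table were dropped, and tests covered the 6284 symbols that exceeded 6 rpbp anywhere. F24 was computed on linear values with 100000 permutations per gene, or all 720 orders for a single series, by the criteria of the study. Time points were compared with limma 3.58.1 (R 4.3.3) on log2(rpbp + 1), a scale that understates changes of low genes, adjusted by Benjamini-Hochberg over all genes tested. The F24 and limma steps were tested on simulated data. Coordinates are counted from 1. GENCODE M1 on NCBIM37, the mm9 assembly, gave a gene of the same name for 14195 symbols and exon GC content for 5997 tested ones (95.4%). The factors and the gene lists were chosen with earlier results of these data known, and each factor is described whatever its result; for listed genes, values are given for those called and for a few others chosen after their values were seen. The 3 genes most like a factor were those with the highest Pearson correlation. Alternatives were the limit on low values, the pseudocount, another scaling, removal of the GC trend in 20 bins, a mean-variance trend in limma, replicate and lane blocks, and each library left out in turn. Other libraries of the study were not analysed here. The amino acid sequences of the factors were not used here.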

Additional observations from a re-analysis of the deposited data

How the results depend on the processing

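The F24 call of Klf13 over both series held in every alternative setting of that test except adjustment over all tested genes, which left 0 of the factors called. A cosine fit in limma also called it (adjusted p = 0.0392), but not with no filter (0.0965) nor in 8 of the 12 fits without 1 library (0.0516 to 0.115). The limma F-test called 0 factors with no filter on low values (Klf13, adjusted p = 0.0856) and 0 to 1 when each library was left out. Between ZT0 and ZT12 the count fell from 2 to 1 with a mean-variance trend, no filter, a pseudocount of 0.1, a limit of 3 rpbp, a replicate block or the 4 time points run in 1 lane (the last chosen after seeing the data), Klf15 being the one lost (limma adjusted p = 0.0565 to 0.120), and ranged from 0 to 2 when each library was left out. The order of levels kept 3 to 4 pairs apart. The differences between replicates 1 and 2 had correlations from −0.12 to 0.32 over 15 pairs of time points (median 0.07). Of these, 5 were over 0.1 and 1 was under −0.1, and the main fits held no replicate term. The replicate block gave Klf15 a limma adjusted p of 0.0573 and moved the genes called between ZT0 and ZT12 from 279 to 271. Among the listed genes, the F-test call of Tat held in 1 of 9 settings other than a library left out, and those of Otc and Fkbp5 in 6 each.

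Some differences that had not passed any test changed sign, and the cause was not tested. With median-ratio scaling these were Klf3 (0.0028) and Klf9 (0.0686) between ZT4 and ZT16 and Klf12 (−0.0183) between ZT8 and ZT20, and with the GC trend removed Klf13 between ZT8 and ZT20 (−0.0263). With each library left out, the difference between ZT4 and ZT16 ranged from −0.57 to 0.16 for Klf3, from −0.36 to 0.0802 for Klf9 and from −0.77 to 0.23 for Klf12, that between ZT0 and ZT12 from −1.11 to 0.605 for Klf10, and that between ZT8 and ZT20 from −0.44 to 0.0990 for Klf9, from −0.29 to 0.32 for Klf12 and from −0.36 to 0.59 for Klf13. Over all tested genes, rhythmic calls numbered 956, but 39 after adjustment, 163 with a cosine fit in limma and 2221 with no filter. Strong calls numbered 401, but 35 after adjustment, 685 without the second ZT8 library, 732 with a lane block and 884 with no filter. F-test calls numbered 481, but 133 with no filter, 120 from the 4 time points run in 1 lane and 167 to 663 with 1 library left out. Calls between ZT0 and ZT12 ranged from 25 to 391 with 1 library left out, those between ZT4 and ZT16 (132) from 22 to 259, with 24 under no filter and 43 from the time points run in 1 lane, and those between ZT8 and ZT20 (99) from 4 to 166, with 45 under no filter. Each time point mean rests on 2 libraries, which limits its precision.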
